A study of Mus musculus with 16 samples.

Results

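The 10 genes described here encode the integrin subunits that macrophages are best known to carry: the leukocyte alpha subunits *Itgam* (CD11b), *Itgax* (CD11c) and *Itgal* (CD11a), the alpha subunits *Itga4*, *Itga6* and *Itgav*, and the beta subunits *Itgb1*, *Itgb2*, *Itgb5* and *Itgb7*. They were taken by name from the 55604 genes listed in the count data, and each matched 1 Ensembl identifier. No rule on their values was used, but earlier results of these data were known when they were chosen. All 10 passed the filter on low counts, as did 16861 genes in all.

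RNA came from tumor-associated macrophages (TAMs) of female C57BL/6 mice, 6 to 8 weeks old, that carried luciferase-expressing ID8 cells, a mouse ovarian cancer line grown in the peritoneal cavity. Cells were collected at 6 to 7 weeks after inoculation. Tim-4+ TAMs were captured with anti-Tim-4 beads and Tim-4- TAMs with anti-F4/80 beads from the cells that remained, giving 4 libraries of each subset in pairs numbered 793, 784, 783 and 779. No tumor-free or untreated group was analysed here. The labels do not say whether a pair is a single mouse or a pool, nor whether pairs were prepared apart, so p-values measure the spread between these 4 pairs, which may be partly technical. Flow cytometry in the study defined TAMs by CD11b, the protein of *Itgam*, and whether that gate also bore on the sequenced cells is not stated in the sources used here.

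Integrins are receptors made of an alpha and a beta chain, and a chain reaches the cell surface only with its partner. *Itgb2* pairs with the CD11 chains, which bind ICAMs, complement fragments and fibrinogen and serve leukocyte adhesion and phagocytosis. *Itgb1* pairs with many alpha chains, among them *Itga4* and *Itga6*, which bind VCAM-1 or fibronectin and laminins. *Itgb7* pairs with *Itga4*, and *Itgb5* with *Itgav*, a chain that binds vitronectin and takes part in the uptake of dying cells. In the peritoneum, resident macrophages are known for high CD11b and F4/80 and low CD11c.

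*Itgam* and *Itgax* lie next to each other on the same strand of chromosome 7, with 11055 bases between them, and their transcripts changed in opposite directions between the subsets. The 250 bases before the start site of each, on the plus strand of GRCm38.p6 (RefSeq), are shown for this reason, with each GAGGAA or its reverse complement, the core of the motif of the macrophage factor PU.1, in capitals. *Itgam* is read from chr7:128062390-128062639 and *Itgax* from chr7:128129300-128129549.
*Itgam*: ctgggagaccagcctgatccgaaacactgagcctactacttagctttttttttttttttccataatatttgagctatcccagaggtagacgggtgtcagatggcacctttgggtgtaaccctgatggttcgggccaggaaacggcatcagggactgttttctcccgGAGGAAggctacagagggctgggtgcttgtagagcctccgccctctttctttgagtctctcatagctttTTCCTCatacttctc
*Itgax*: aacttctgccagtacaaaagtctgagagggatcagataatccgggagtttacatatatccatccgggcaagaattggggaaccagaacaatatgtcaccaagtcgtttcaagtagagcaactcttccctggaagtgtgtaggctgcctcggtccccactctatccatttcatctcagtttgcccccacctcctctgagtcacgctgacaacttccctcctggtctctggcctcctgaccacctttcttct
In the window of 300 bases that also holds the first 50 transcribed bases, GAGGAA on either strand was found 3 times for *Itgam*, with the first letter at -84, -15 and 33 counted from the start site, and 0 times for *Itgax*. RefSeq promoters were matched for 7 of the 10 integrins, not for *Itgal*, *Itga6* and *Itgb2*. Of these 7, *Itgam*, *Itgav*, *Itgb1* and *Itgb7* held GAGGAA (4 of 7), and 28.3% of 32851 mouse promoters of this length did. The GC box, searched as GGGCGG on either strand, was in 5 of the 7 integrin windows and in 35.7% of all promoters. A GATA motif, searched as AGATAA on either strand, was in the *Itgax* window alone and in 11.2% of all promoters. CCAAT on either strand was likewise in the *Itgax* window alone and in 37.4% of all promoters, and TATAAA was in 0 of the 7 windows and in 13.6% of all promoters. These matches describe letters and say nothing of binding.

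At an adjusted p under 0.05, the edgeR fit with the pair as a block called 6 of the 10 integrins higher and 2 lower in Tim-4+ than in Tim-4- TAMs. The higher genes were *Itgam*, *Itgb2*, *Itgb1*, *Itgb7*, *Itga6* and *Itga4*, the lower ones *Itgax* and *Itgal*, and *Itgav* and *Itgb5* did not pass. Over all 16861 genes, 17.4% were called, 8.97% higher and 8.43% lower. In the 8770 genes whose mean reached 10 CPM, as 9 of these integrins did, 20.8% were called, 12.8% higher and 8.04% lower. With a 2-fold change as well, 4 integrins were higher and 1 lower, while this rule called 9.59% of all genes, 3.8% higher and 5.79% lower. In 5 of the 10 every library of a subset lay beyond all 4 of the other, which was so for 12.8% of all genes, and in 9 of 10 all pairs had the same direction, against 42.6%. The median log2 fold change was 0.92 over the 10 integrins and -0.0012 over all genes tested. The calls rested on the pairs. Without pair 784, 0 of the 10 passed in edgeR, with adjusted p-values of at least 0.0639, although 9 had an unadjusted p under 0.05, and 4 passed without pair 793, 4 without pair 779 and all 10 without pair 783. Without the pairing only *Itgam* passed, and DESeq2 with the pairing called all 10, 6 higher and 4 lower. Genes that were higher made up 51.6% of all calls with TMM scaling and 13.9% with scaling by total counts, while no integrin of the 10 turned its direction in these fits. In bulk RNA, fewer cells of a type and less RNA per cell cannot be told apart.

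**Figure D1:**
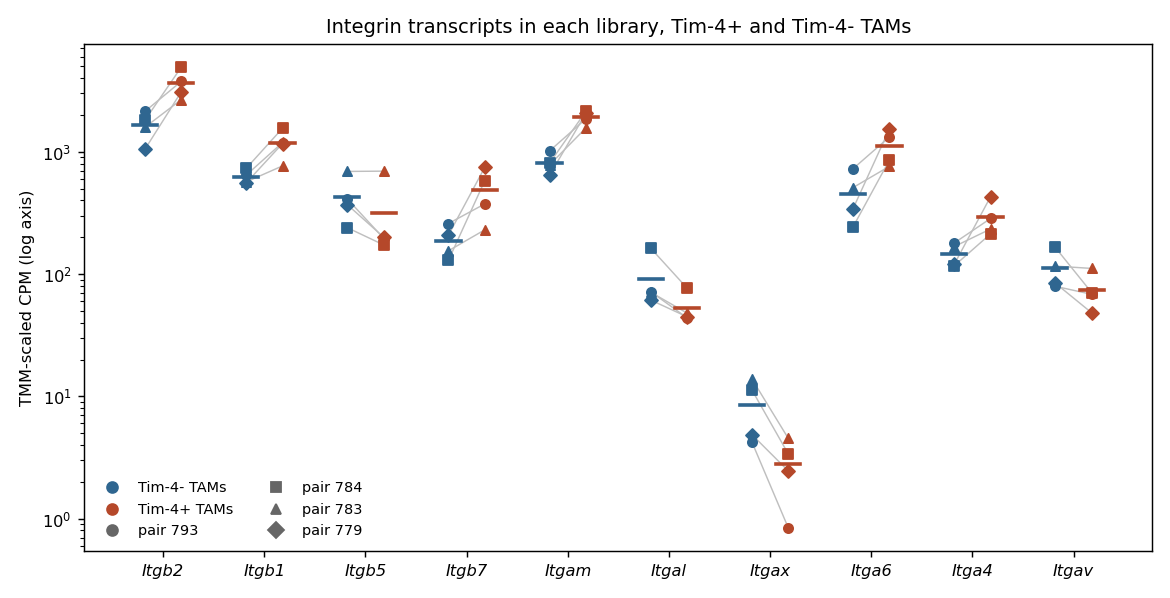
TMM-scaled CPM (counts scaled to library size, log axis) of the 10 integrins in each of the 8 libraries. Each point is a library, its shape gives the pair, thin lines join the libraries of a pair and short bars are subset means. *Itgam*, *Itgb2*, *Itgb1*, *Itga6* and *Itga4* lie higher in every Tim-4+ library than in any Tim-4- library, while *Itgax* and *Itgal* are lower within each pair with subsets that overlap.

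Library totals ran from 53527928 to 57768202 counts in Tim-4+ TAMs and from 55618306 to 69594245 in Tim-4- TAMs, and 3 counts correspond to 0.0382 to 0.0630 CPM on the TMM scale (counting error only). *Timd4*, the gene of the protein used for capture, was at 1161, 1744, 524 and 1166 CPM in Tim-4+ TAMs of pairs 793, 784, 783 and 779 and at 85.0, 11.1, 22.3 and 1.97 CPM in their Tim-4- partners. Its log2 ratio was thus 3.77, 7.29, 4.56 and 9.19, far larger in pairs 784 and 779 than in the other two. The 8 markers of tumor or mesothelial cells summed to 106 to 390 CPM in Tim-4+ and 412 to 1938 CPM in Tim-4- TAMs, and all 8 were lower in Tim-4+ TAMs. Macrophage markers summed to 53894 to 66958 and 25925 to 41930 CPM, with 7 of 11 higher and *Mrc1* lower, the most abundant being *Lyz2*. Neutrophil markers summed to 253 to 369 and 86.9 to 191 CPM, led by *Csf3r*, and mast cell markers to 3.97 to 16.1 and 20.1 to 68.2 CPM, led by *Kit*. Of the 6 neutrophil genes, 3 were tested and 2 were called higher in Tim-4+ TAMs. These were *Csf3r* (log2 fold change 1.17, adjusted p = 0.0147) and *Mmp8* (log2 fold change 2.73, adjusted p = 0.0477). *S100a8* was higher in 4 of 4 pairs without passing (log2 fold change 0.36, adjusted p = 0.374). Over all libraries *Mmp8* had a mean of 0.35 CPM and *S100a8* of 1.85 CPM. The neutrophil genes *S100a9*, *Ly6g* and *Retnlg*, too low to test, had means of at most 0.324 CPM in either subset. B cell, T cell, dendritic cell, NK cell, eosinophil, fibroblast or endothelial and platelet markers summed to at most 30.7 CPM in any library. The part of other cells in the integrin values was not tested.

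The *Itgb2* group of leukocyte integrins moved apart by subunit. *Itgam* (ENSMUSG00000030786.18, chr7:128062640-128118491, plus strand) encodes CD11b, the alpha chain of complement receptor 3. Its level was 1862, 2144, 1567 and 2070.3 CPM in Tim-4+ TAMs of pairs 793, 784, 783 and 779 and 1015, 807, 781 and 642 CPM in Tim-4- TAMs. The lowest Tim-4+ library stood well above the highest Tim-4- library. Means of 1911 ± 258 and 811 ± 154 CPM (SD, n = 4) gave a 2.37-fold difference, 1.24 ± 0.18 on the log2 scale (fitted change ± standard error here and in what follows), with adjusted p = 0.00855.

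*Itgb2* (ENSMUSG00000000290.13, chr10:77530252-77565708, plus strand) encodes CD18, the beta chain that all CD11 chains need. Its level was 3766, 4928, 2672 and 3099 CPM in Tim-4+ TAMs and 2137, 1811, 1585 and 1048 CPM in Tim-4- TAMs. The subsets did not overlap, and the Tim-4- library of pair 779 was the lowest of all. The means were 3616 ± 984 and 1645 ± 458 CPM (SD, n = 4), and the difference was 1.14 ± 0.20 on the log2 scale (adjusted p = 0.0123).

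*Itgax* (ENSMUSG00000030789.9, chr7:128129547-128150657, plus strand) encodes CD11c, a chain used as a marker of dendritic cells and of some macrophages. It was scarce throughout, with 0.841, 3.38, 4.53 and 2.46 CPM in Tim-4+ and 4.24, 11.3, 13.9 and 4.87 CPM in Tim-4- TAMs, from 40 to 248 and from 283 to 1090 counts per library. Each Tim-4+ library was below its partner, but pair 783 of the Tim-4+ subset was above pair 793 of the Tim-4- subset. Its log2 difference of -1.65 ± 0.25 (adjusted p = 0.00875) was the largest fall among the 10. Dendritic cell markers, among which this gene was not counted, summed to 13.8 to 30.7 CPM in Tim-4+ and 10.9 to 18.7 CPM in Tim-4- TAMs, higher in Tim-4+ TAMs in 2 of 4 pairs. The single markers went in either direction. Of the 7 tested, *Zbtb46*, the most abundant, was called lower (log2 fold change -0.89, adjusted p = 0.0261). *Cd209a* was called higher (log2 fold change 2.02, adjusted p = 0.0104), and the other 5 did not pass.

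*Itgal* (ENSMUSG00000030830.18, chr7:127296260-127335138, plus strand) encodes CD11a, the alpha chain of LFA-1, which lymphocytes carry as well. It was at 43.8, 76.6, 47.9 and 44.7 CPM in Tim-4+ and 71.8, 163, 71.0 and 61.3 CPM in Tim-4- TAMs. Pair 784 was far above the rest in both subsets, and only this pair made the subsets overlap. All pairs were lower, with a log2 difference of -0.71 ± 0.13 (adjusted p = 0.0128). The sum of B cell markers was lower in Tim-4+ TAMs in 4 of 4 pairs, at 5.36 to 15.4 CPM in Tim-4+ and 10.5 to 18.4 CPM in Tim-4- TAMs. The single markers did not all follow it. *Cd79a*, the most abundant, was higher in 3 of 4 pairs, and 1 of the 5 tested was called, as lower. The sum of T cell markers, lower in all pairs as well, was no more than 2.56 CPM in Tim-4+ and 10.6 CPM in Tim-4- TAMs. It was led by *Cd4*, with means of 0.813 and 4.80 CPM, while *Cd3d*, *Cd3e* and *Cd3g* had means of at most 0.206 CPM in either subset. *Lck* had means of 0.317 and 0.923 CPM and did not pass. *Cd8a*, too low to test, had means of 0.0705 and 0.322 CPM. NK cell markers summed to no more than 0.306 CPM in any library.

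The log2 ratio of *Itgam* to *Itgax*, per kilobase of exon, put the 3 CD11 genes on 1 scale. In pairs 793, 784, 783 and 779 it was 11.05, 9.24, 8.37 and 9.65 for Tim-4+ TAMs and 7.84, 6.09, 5.75 and 6.98 for Tim-4- TAMs. Every Tim-4+ value exceeded every Tim-4- value, and the pairs kept nearly the same gap of 2.91 ± 0.31 (SD, n = 4). For *Itgam* to *Itgal* the gap was 1.95 ± 0.45. An exact two-sided sign-flip permutation test gave p = 0.13 for both, the smallest p that 4 pairs allow.

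A limit applies to the level of *Itgam*. Of its 5024 exon bases, 3450 (68.7%) are shared on the same strand with the annotated gene *Gm49368*, which had 4 to 25 counts per library, and how reads on shared exons were assigned is not stated in the sources used here. Per kilobase of all its exons *Itgam* was at 380.4 ± 51.4 in Tim-4+ and 161 ± 30.6 CPM in Tim-4- TAMs, below *Itgb2* at 1185 ± 322 and 539 ± 150.1 CPM. Per kilobase of the 1574 unshared bases it would be at 1214 ± 164 and 515 ± 97.8 CPM, next to *Itgb2*. The ratio between the subsets is the same on both scales by construction, and how the assignment of shared reads bears on it was not tested.

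*Itgb1*, *Itgb7*, *Itga4* and *Itga6* were all higher in Tim-4+ TAMs. Other partners of *Itgb1*, described below, went in either direction. *Itga9* and *Itga7* were higher and *Itga3* was lower, while *Itgav* and *Itga5* were lower in all pairs without passing. *Itgb1* (ENSMUSG00000025809.15, chr8:128685654-128733200, plus strand) encodes CD29, the shared beta chain of the collagen, laminin and fibronectin receptors. Its level was 1189, 1556, 766 and 1167 CPM in Tim-4+ and 642, 729.8, 566 and 555 CPM in Tim-4- TAMs. The subsets did not overlap, with the closest approach between the Tim-4+ library of pair 783 and the Tim-4- library of pair 784. Between the subsets *Itgb1* differed by 0.87 ± 0.16 on the log2 scale (adjusted p = 0.0137).

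*Itga6* (ENSMUSG00000027111.15, chr2:71745616-71858416, plus strand) encodes CD49f, a laminin-binding chain. It had the largest rise of the 10, with 1321, 856, 760.3 and 1538 CPM in Tim-4+ and 726, 243, 509 and 342 CPM in Tim-4- TAMs. The subsets lay apart by a narrow margin, since the Tim-4- library of pair 793 came close to the Tim-4+ library of pair 783. The fitted difference was 1.36 ± 0.29 on the log2 scale (adjusted p = 0.0231), and within pairs it ran from 0.58 in pair 783 to 2.17 in pair 779.

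*Itga4* (ENSMUSG00000027009.18, chr2:79255426-79333123, plus strand) encodes CD49d, which joins *Itgb1* in VLA-4 or *Itgb7* in the gut-homing receptor. It was at 285, 213, 234 and 429 CPM in Tim-4+ and 179, 117, 168 and 119.9 CPM in Tim-4- TAMs. The Tim-4+ library of pair 779 was far above the others and the subsets did not overlap. This was a rise of 0.96 ± 0.22 on the log2 scale (adjusted p = 0.0310). Antisense exons of *Cerkl* cover 8.04% of its exon bases, with 20 to 77 counts per library for *Cerkl*.

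*Itgb7* (ENSMUSG00000001281.10, chr15:102215995-102231944, minus strand) encodes the beta chain that joins *Itga4* or, in intraepithelial lymphocytes, *Itgae*. Its level was 375, 581, 230.0 and 747 CPM in Tim-4+ and 259, 129, 155 and 208 CPM in Tim-4- TAMs. All pairs were higher, yet the Tim-4+ library of pair 783 fell below the Tim-4- library of pair 793. The rise was 1.28 ± 0.32 on the log2 scale (adjusted p = 0.0408), with 2.17 and 1.85 in pairs 784 and 779 and 0.53 and 0.57 in pairs 793 and 783. *Itgae*, the other alpha partner of *Itgb7*, was at most 3.47 CPM in any library and did not pass (log2 fold change 0.23, 95% interval -1.83 to 2.29).

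**Figure D2:**
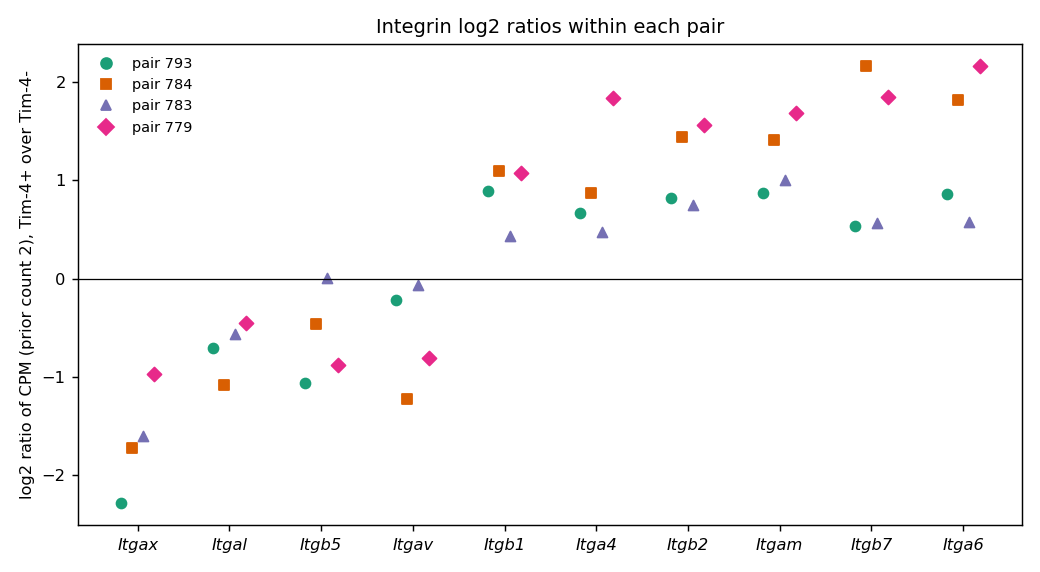
Log2 ratio of TMM-scaled CPM (prior count of 2), Tim-4+ over Tim-4-, of each integrin in each of the 4 pairs, ordered by fold change. Each point is a pair. Ratios of *Itga6* range from 0.58 to 2.17 and those of *Itgb7* from 0.53 to 2.17, and pairs 784 and 779 lie above pairs 793 and 783 for all 6 genes that were higher.

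For each of the 6 genes that were higher, the within-pair ratio was larger in pairs 784 and 779 than in pairs 793 and 783. *Itgam* had ratios of 0.88, 1.41, 1.005 and 1.69 in pairs 793, 784, 783 and 779, and *Itgb2* had 0.82, 1.44, 0.75 and 1.56. *Timd4* itself had its largest ratios in the same 2 pairs, and so did the tumor or mesothelial markers, whose sum was 194 and 221 CPM in Tim-4+ and 1272 and 1938 CPM in Tim-4- TAMs of pairs 784 and 779. In pairs 793 and 783 that sum was 106 and 390 CPM against 412 and 878 CPM. *Itgav* had its largest falls in these pairs too, -1.23 and -0.81 in pairs 784 and 779 and -0.22 and -0.06 in pairs 793 and 783. *Itgax* had another order, with -2.29, -1.73, -1.61 and -0.98 in pairs 793, 784, 783 and 779. So did *Itgal*, with -0.71, -1.09, -0.57 and -0.45, and *Itgb5*, with -1.07, -0.47, 0.01 and -0.88 in the same pairs. The part of the capture and of tumor cells in these ratios was not tested.

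*Itgav* and *Itgb5*, which together form the vitronectin receptor alpha-v beta-5, were lower on average in Tim-4+ TAMs and did not pass the test. *Itgav* (ENSMUSG00000027087.11, chr2:83724397-83806916, plus strand) was at 68.2, 70.4, 111 and 48.1 CPM in Tim-4+ and 79.4, 165, 116 and 84.2 CPM in Tim-4- TAMs. All Tim-4+ libraries were below their partners, by almost nothing in pair 783, and the subsets overlapped. Its fitted log2 difference was -0.58 (95% interval -1.05 to -0.11, adjusted p = 0.0893). Antisense exons of *Gm13684* cover 5.90% of its exon bases.

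*Itgb5* (ENSMUSG00000022817.15, chr16:33829665-33949338, plus strand) was at 196, 173, 694 and 200.2 CPM in Tim-4+ and 412, 239, 690.3 and 369 CPM in Tim-4- TAMs. Pair 783 was high in both subsets and was the only pair without a fall, with a log2 ratio of 0.01. The fit gave a log2 difference of -0.60 (95% interval -1.04 to -0.17, adjusted p = 0.0630). Without pair 783, *Itgav* was at -0.76 (adjusted p = 0.0167) and *Itgb5* at -0.81 (adjusted p = 0.00708) and both passed. With scaling by total counts (adjusted p = 0.0313 and 0.0161) both passed in edgeR with all pairs. With DESeq2 in place of edgeR both passed as well, with log2 fold changes of -0.58 (adjusted p = 0.0397) and -0.60 (adjusted p = 0.0189). Between these partners the log2 ratio of *Itgav* to *Itgb5* per kilobase was -3.48 ± 0.60 in Tim-4+ and -3.50 ± 0.93 in Tim-4- TAMs (SD, n = 4), with 2 pairs higher and 2 lower (exact sign-flip permutation p = 0.75).

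The makeup of subunit transcripts was compared per kilobase of exon, as a share of the sum within each class. Among the 4 beta chains, *Itgb2* made up 67.8 ± 4.74% in Tim-4+ and 60.5 ± 7.04% in Tim-4- TAMs (SD, n = 4) and was larger in Tim-4+ TAMs in 4 of 4 pairs. *Itgb5* made up 5.85 ± 5.83% and 13.9 ± 6.02% and was smaller in 4 of 4 pairs. *Itgb1* held 16.4 ± 1.61% and 17.7 ± 3.14% and *Itgb7* 9.99 ± 4.57% and 7.89 ± 2.76%, both with pairs in either direction. The share of *Itgb2* ran from 62.4 to 71.9% in Tim-4+ TAMs and from 52.2 to 67.0% in Tim-4- TAMs, so the subsets overlapped.

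Among the alpha chains outside the CD11 group, *Itga6* made up 81.1 ± 3.85% of Tim-4+ and 68.5 ± 11.2% of Tim-4- transcripts per kilobase. *Itgav* made up 5.19 ± 3.08% and 16.4 ± 9.79%, and *Itga4* 13.7 ± 1.57% and 15.0 ± 1.63%. In the Tim-4- library of pair 784 *Itgav* reached 30.3% and *Itga6* fell to 53.2%, the widest departure of the 8 libraries. Within the CD11 group *Itgam* took 97.8 ± 0.54% and 91.1 ± 3.87%, *Itgal* 2.08 ± 0.48% and 7.86 ± 3.63%, and *Itgax* 0.16 ± 0.10% and 1.03 ± 0.57%. On the unshared exon bases of *Itgam* its share was 99.3 ± 0.17% and 97.0 ± 1.41%, with *Itgal* at 0.66 ± 0.15% and 2.65 ± 1.32%. For the 8 shares that moved the same way in all pairs, the exact sign-flip permutation test gave p = 0.13, the smallest that 4 pairs allow, and 0.375 for *Itgb1* and *Itgb7*. A test of this design cannot reach 0.05.

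**Figure D3:**
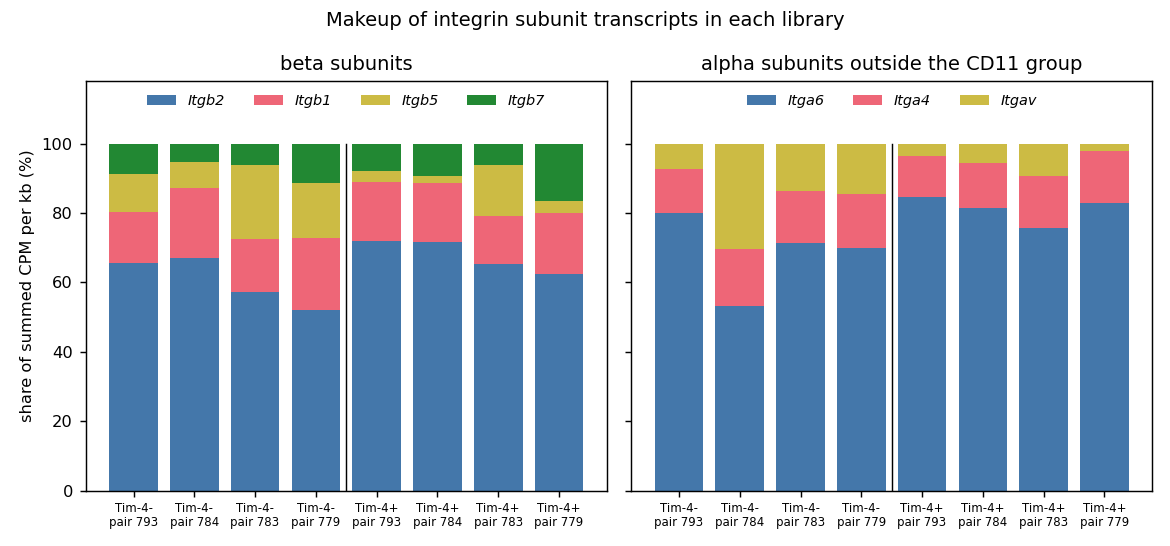
Share (%) of summed CPM per kilobase of exon taken by each beta chain (left) and by each alpha chain outside the CD11 group (right). Each bar is a library, Tim-4- libraries left and Tim-4+ libraries right of the black line. *Itgb2* takes 52.2 to 71.9% of the beta chains in every library, *Itgb5* takes less in each Tim-4+ library than in its partner, and *Itgav* is largest, at 30.3%, in the Tim-4- library of pair 784.

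Across the 8 libraries, which share 4 pairs and 2 subsets, levels of partner chains were compared by the Pearson correlation of log2 CPM. It was 0.95, -0.62 and -0.30 between *Itgb2* and its partners *Itgam*, *Itgax* and *Itgal*. Between *Itgb1* and its partners *Itga4*, *Itga6* and *Itgav* it was 0.67, 0.68 and -0.58. It was 0.82 between *Itga4* and *Itgb7* and 0.49 between *Itgav* and *Itgb5*. *Itgax* was at -0.71 with its neighbor *Itgam* and 0.68 with *Itgal*. Genes whose mean reached 10 CPM were searched, and those most like *Itga6* were *Itsn1* (0.992), *Naip1* (0.989) and *Pygl* (0.987), and those most like *Itgax* were *Map3k14* (0.975), *Brox* (0.959) and *Slamf7* (0.947). These correlations, over 8 points, describe the libraries and were not tested.

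The other 17 integrin genes of the mouse were compared in the same fit. Of the 13 tested, 2 were higher, 3 were lower and 8 did not pass, with a median log2 fold change of -0.39 beside 0.92 for the 10 macrophage integrins. The difference between the lists was not tested. *Itgad*, *Itgb6*, *Itga8* and *Itgb2l* were too low to test, and *Itgb2l* had 0 counts in all libraries.

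*Itga3*, a laminin-binding partner of *Itgb1* in epithelial cells, was at 9.77, 31.1, 23.4 and 30.003 CPM in Tim-4+ and 63.3, 276, 71.3 and 314 CPM in Tim-4- TAMs. All Tim-4+ libraries were below all Tim-4- libraries, and pairs 784 and 779 were highest among the latter. It differed by -2.72 ± 0.31 on the log2 scale (adjusted p = 0.00722), more than any of the 10 macrophage integrins. *Itgb8*, the beta chain that joins *Itgav* to activate TGF-beta, was lower too, at 2.02 ± 2.08 against 11.2 ± 5.12 CPM (log2 fold change -2.72, adjusted p = 0.0283). *Itgb4*, the hemidesmosome partner of *Itga6*, was lower, at 1.53 ± 0.76 against 6.38 ± 5.16 CPM (log2 fold change -1.71, adjusted p = 0.0427). Markers of tumor or mesothelial cells were lower in Tim-4+ TAMs as well, with a median log2 fold change of -2.25 and *Krt19* the most abundant. Their part in the values of these 3 genes was not tested.

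*Itga9*, which binds tenascin and VCAM-1 with *Itgb1*, was higher in all pairs, at 136 ± 24.5 against 87.1 ± 18.7 CPM (log2 fold change 0.65, adjusted p = 0.0157). *Itga7*, a laminin-binding chain best known from muscle, was higher at a low level, 3.73 ± 2.61 against 1.14 ± 0.72 CPM (log2 fold change 1.67, adjusted p = 0.0167). *Itga5*, the fibronectin receptor chain, was at 82.4, 238, 89.4 and 41.3 CPM in Tim-4+ and 103, 291, 109 and 50.5 CPM in Tim-4- TAMs. It was lower by almost the same ratio in each pair, and with a log2 fold change of -0.30 (95% interval -0.52 to -0.08, adjusted p = 0.0669) it did not pass. *Itgb3*, the other common partner of *Itgav*, was at 7.98 ± 3.09 and 6.61 ± 2.36 CPM and did not pass (log2 fold change 0.24, adjusted p = 0.554). *Itga2b* (-0.93) and *Itga10* (-0.39) did not pass either.

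**Figure D4:**
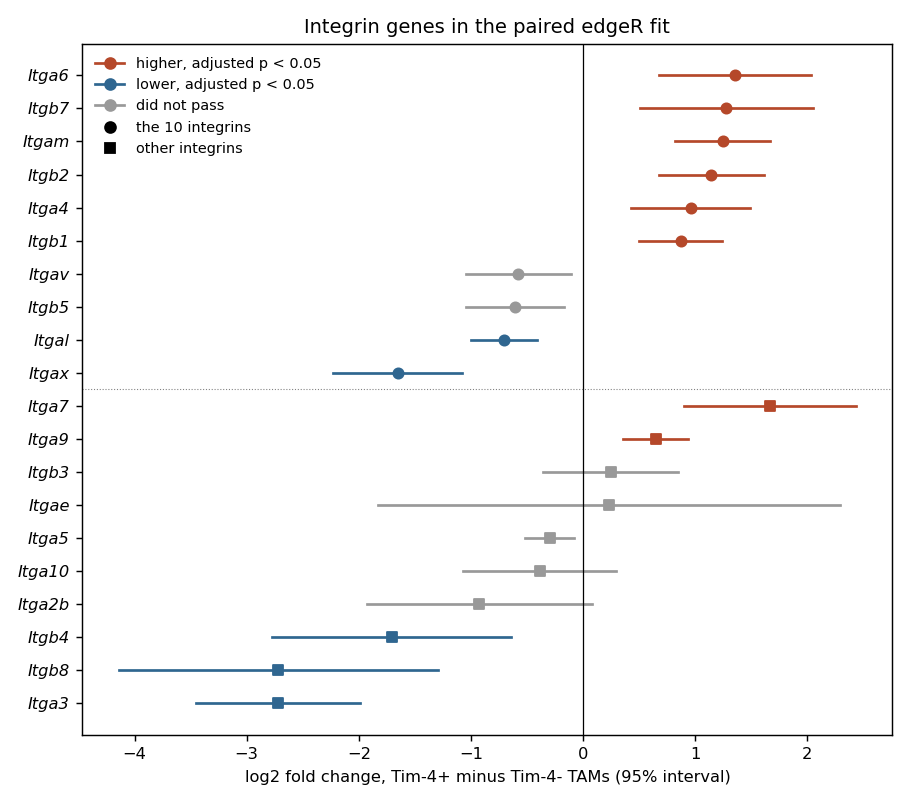
Log2 fold change, Tim-4+ minus Tim-4- TAMs, with its 95% interval, of the 10 integrins (circles) and of the other integrins with a mean of at least 1 CPM (squares). Red marks genes higher and blue genes lower at an adjusted p under 0.05, gray the rest. *Itga6* lies at 1.36 and *Itgax* at -1.65 among the 10, and *Itga3* and *Itgb8* lie lowest of all, at -2.72.

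Of the 29 ligands of integrins, 23 were tested, 7 were higher and 7 were lower, with a median log2 fold change of 0.18. Among those higher were *Fn1*, the fibronectin gene bound by *Itga4* and *Itga5* receptors, with 33509 ± 5279.5 against 17187 ± 6450.0 CPM (log2 fold change 1.02, adjusted p = 0.0306) and the highest level per length of the list. *Lrrc32*, which holds latent TGF-beta at the cell surface, rose from 0.629 to 12.1 CPM (log2 fold change 4.74, adjusted p = 0.00650). *Icam2*, a ligand of LFA-1, rose by 2.13 (adjusted p = 0.0113) and *Thbs1*, the matrix protein thrombospondin, by 1.61 (adjusted p = 0.0137) on the log2 scale. Among the lower ones were *Vcam1*, the endothelial and mesothelial ligand of VLA-4, at -2.73 (adjusted p = 0.00637), and the laminin chains *Lama5*, *Lamb1* and *Lamb2* at -2.28, -2.16 and -1.69. The laminin chain *Lamc1* went the other way, higher in 4 of 4 pairs without passing (log2 fold change 0.31, adjusted p = 0.0983). Tumor or mesothelial markers were lower in the same libraries, and their part in the laminin values was not tested.

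Of 30 genes that activate integrins or tie them to actin, 27 were tested, 6 were higher and 4 lower, with a median of 0.15. *Fermt3*, the kindlin of blood cells that switches on beta chains, passed (log2 fold change 0.70, adjusted p = 0.0320). Larger rises included those of *Tln2*, a talin, at 2.57 (adjusted p = 0.00804), *Apbb1ip*, the Rap1 effector RIAM, at 0.98 (adjusted p = 0.0234), and *Fyb*, the adaptor ADAP, at 0.94 (adjusted p = 0.0129). *Tln1*, the main talin of leukocytes, did not pass (0.45, adjusted p = 0.132). *Parva*, *Fermt2* and *Actn1*, known from adherent cells, were lower by log2 fold changes of -2.04, -1.67 and -1.51. *Rap1b*, the small GTPase upstream of talin, had the highest level per length and did not pass (0.38, adjusted p = 0.127).

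Of 26 genes of integrin signaling, all tested, 6 were higher and 3 lower, with a median of 0.24. The largest rises were small, in *Arhgdib* at 0.94 (adjusted p = 0.00989), *Rac2*, the Rac GTPase of blood cells, at 0.89 (adjusted p = 0.0107), *Ptk2b*, the kinase PYK2, at 0.74 (adjusted p = 0.0212) and *Fgr*, a *Src* family kinase of myeloid cells, at 0.64 (adjusted p = 0.0219). *Src*, *Bcar1* and *Vav2* were lower, at -1.69, -1.21 and -0.49. Of 14 membrane partners of integrins, 13 were tested, 5 were higher and 0 were lower in edgeR, with a median of 0.23. DESeq2 also called 0 of them lower, but edgeR called 3 lower with scaling by total counts and 1 lower with no count filter. With TMM scaling and the count filter in edgeR, *Cd63* was lower at an unadjusted p under 0.05. The tetraspanins *Cd37* and *Cd9* rose by 1.38 (adjusted p = 0.0157) and 0.93 (adjusted p = 0.0125), *Plaur*, the urokinase receptor that binds *Itgam* on the membrane, by 1.08 (adjusted p = 0.00840), and *Bsg* by 0.88 (adjusted p = 0.00961) on the log2 scale. Of the pathway lists, 34.6 to 60.9% of the tested genes were called, against 17.4% of all genes.

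**Figure D5:**
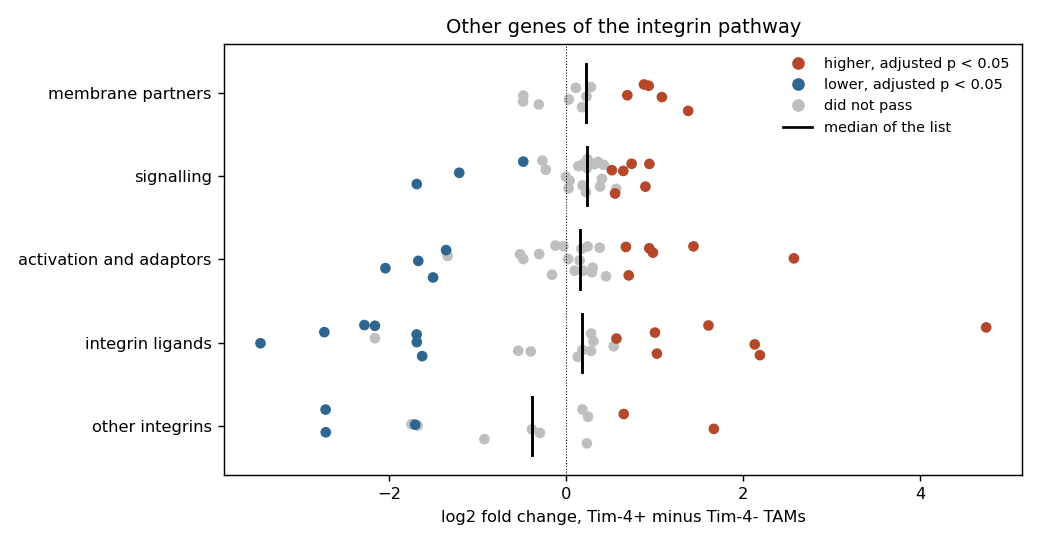
Log2 fold change, Tim-4+ minus Tim-4- TAMs, of every tested gene in 5 lists of the integrin pathway. Each point is a gene, red higher and blue lower at an adjusted p under 0.05, and black bars are medians. The medians lie between -0.39 for the other integrins and 0.24 for signaling, and no membrane partner passes the test as lower.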

How the data were processed

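A stranded, paired-end library was made per subset and pair from RNA depleted of ribosomal RNA. The submitters' processing notes name FastQC 0.11.3, TopHat2 2.0.13, Cufflinks, Cuffdiff 2.2.1 and the build GRCm38, whereas the methods of the study name hg19. Raw counts of reads per gene and lane were deposited without normalization, and the counting tool, its use of strand and its treatment of shared exons are not given in the sources used here. Genes that overlap on either strand are therefore uncertain.

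The counts of the 2 lanes of each library were summed, since lanes are not replicates. Lane 1 of the Tim-4- library of pair 793 is listed by symbol and was joined by order, and 96.9% of its symbols matched the annotation at the same place. Names, lengths and coordinates are from GENCODE M21 on GRCm38, which held 98.6% of the identifiers. Genes that reached 10 counts in 4 or more of the 8 libraries were tested with edgeR 4.0.16 (R 4.3.3), TMM factors (0.833 to 1.18), robust quasi-likelihood fits, the pair as a block and adjustment over all 16861 genes by Benjamini-Hochberg. The threshold for a call was an adjusted p of 0.05. The standard error is the log2 fold change over the square root of F. CPM are TMM-scaled, and levels per kilobase used the union of exons. Per-pair ratios used a prior count of 2.

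Pairs come from the numbers in the labels. After subset means were removed, partner libraries had r of 0.277 to 0.498 across genes, which describes the pairing. The supplement of the study gives the same libraries other pair numbers, exchanged alike in both subsets, so the pairing is the same.

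The 10 integrins, the lists and the tests were chosen with earlier results of these data known. Genes were named by a rule: all 10 integrins, other integrins whose mean reached 1 CPM, in each further list up to 4 called genes per direction whose mean reached 5 CPM and the most abundant per length, the top gene of each marker list that held signal, and the 3 genes most correlated with the largest rise and fall. *Fermt3*, *Tln1*, *Cd63*, *Lamc1* and the marker genes that were not the top of their list, such as *Mrc1*, were named after their values were seen. Alternatives were DESeq2 1.42.0 size factors and test, total counts, no block, other filters, lane 2 alone, joining the symbol lane by symbol, each pair left out and other gene lengths. Leaving out the symbol lane and the exon bases shared with another gene were alternatives chosen after seeing the data. The fits were tested on simulated data.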

Additional observations from a re-analysis of the deposited data

Results flagged for a closer look

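In 4 of 40 groups of 4 libraries, a single library of the 10 integrins stood apart by Dixon's criterion, and chance gives about 2. For *Itgal* it was pair 784 in both subsets, at 76.6 CPM in Tim-4+ TAMs, where the others were at 43.8 to 47.9 CPM, and at 163 CPM in Tim-4- TAMs, where the others were at 61.3 to 71.8 CPM. For *Itgb5* it was pair 783 in Tim-4+ TAMs, at 694 CPM beside 173 to 200.2 CPM in the others. The share of *Itgb5* among the beta chains in the same library was 14.6%, beside 2.16 to 3.46% in the other Tim-4+ libraries. The Tim-4- library of pair 783 also had the highest *Itgb5* of its subset, 690.3 CPM. Without pair 784, the log2 fold change of *Itgal* was -0.58 (adjusted p = 0.0639 in edgeR), and without pair 783 that of *Itgb5* was -0.81 (adjusted p = 0.00708).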

How the results depend on the processing

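No fold change of the 10 integrins turned its direction in 130 alternative values (13 for each gene), of which 99 kept their side of the threshold, 24 lost it and 7 gained it. The counts did move. Without the pairing (no block), 1 integrin was higher, *Itgam*, and 0 were lower, 1 was called with a 2-fold change, and 147 genes were higher and 85 lower over the whole table, where 1512 and 1421 were with the block. The 10 integrins then had 8 with an unadjusted p under 0.05. With scaling by total counts the median log2 fold change over all genes was -0.36, with 6 integrins higher, 4 lower and 2 with a 2-fold change, and 789 genes higher and 4906 lower. DESeq2 with the block gave 4 integrins lower and 2328 genes lower. With no count filter *Itgb5* gained its call (adjusted p = 0.0296) and *Itgb7* lost it (adjusted p = 0.186), with more genes tested. With each pair left out in turn, 0 to 6 integrins were higher, 0 to 4 lower and 0 to 7 called with a 2-fold change, and 78 to 1573 genes were higher and 54 to 1895 lower. Pair 784 gave the low end of each range and pair 783 the high end of the lower and 2-fold counts. The lists moved alike, with 0 to 2 other integrins higher and 0 to 5 lower, 1 to 7 ligands higher and 0 to 9 lower, 0 to 6 adaptors higher and 0 to 4 lower, 0 to 7 signaling genes higher and 0 to 3 lower, and 0 to 5 membrane partners higher and 0 to 2 lower. Beyond the fewer pairs, the cause was not tested.

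Leaving out exon bases shared with another gene moved the difference in share within the CD11 group to 2.28 percentage points for *Itgam*, -0.30 for *Itgax* and -1.99 for *Itgal*, from 6.65, -0.87 and -5.78, by construction of the length. With each pair left out, the difference for *Itgb2* was 6.34 to 8.20 and that for *Itga6* 7.41 to 15.3 percentage points. At 3 counts per library, levels under 0.0630 CPM could not be seen, which bears on none of the 10 integrins.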
